A study of Mus musculus with 6 samples.

Results

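The glutathione S-transferases were followed through the kidney cell classes of mice that lacked *Prdm16* and of wild type mice. The 10 genes *Gsta2*, *Gsta3*, *Gsta4*, *Gstm1*, *Gstm2*, *Gstm4*, *Gstm5*, *Gstp1*, *Gstt1* and *Gstk1* were taken by symbol from the 26903 genes of the count tables, and each was present in all 6 libraries. The list was chosen with earlier results of these data known. Single-cell RNA sequencing of the renal cortex had been carried out on the BD Rhapsody system, which captures cells in microwells and counts each transcript once by its unique molecular identifier (UMI). The wild type (WT) group held 3 mice and the *Prdm16* global knockout (KO) group 3 mice, all aged 9 months and labelled male, with 1 mouse per library. The KO allele had been made with CRISPR-Cas9 by removing exon 2, which shifts the reading frame, and the gene product is lost in every tissue, so that a difference in a kidney cell need not have arisen in that cell. WT mice carried no deletion, and the labels name no treatment.

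Glutathione S-transferases are enzymes that join the tripeptide glutathione to electrophilic compounds, such as lipid peroxidation products and drug metabolites, which makes these soluble enough to be exported and broken down. The cytosolic enzymes fall into classes by sequence, named alpha (*Gsta*), mu (*Gstm*), pi (*Gstp*) and theta (*Gstt*), whereas the kappa enzyme encoded by *Gstk1* resides in mitochondria and peroxisomes. In the kidney, the proximal tubule is known for its large glutathione turnover. Many genes of the family respond to the transcription factor NRF2, which binds antioxidant response elements. To determine whether loss of PRDM16 goes with altered transferase transcripts, levels were described over nephron segments and then compared between WT and KO mice within each segment.

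Levels are given as CPM, the UMIs of a gene scaled to a total of 1e6 UMIs. After filters, 28303 cells were retained, 14569 from WT and 13734 from KO mice, with 22928919 to 35226865 UMIs per library. No 2 libraries shared more than 2 cell labels. Cells formed 29 clusters, which were named from 123 marker genes, and each class name stands for cells that looked like that type by these markers. The classes were proximal convoluted tubule (PCT), parietal epithelial (PEC), loop of Henle (LOH), macula densa (MD), distal convoluted tubule (DCT), connecting tubule (CNT), principal cell (PC), intercalated cell (IC), podocyte, endothelial, stromal and mesangial, macrophage, and T and NK. In LOH cells, all 7 LOH markers were found in every library, and their summed level was 49779 to 53475 CPM in WT and 49234 to 56243 CPM in KO. The single CNT cluster scored higher for PC markers (2.64) than for CNT markers (2.32), with 7 PC markers detected, so CNT may hold PC-like cells. PCT cells were few, with 38, 168 and 221 cells in WT and 11, 37 and 15 cells in KO replicates 1 to 3, and the limit of 50% mitochondrial UMIs removed 45.0% to 63.7% of the barcodes within the other bounds. Against the male label, the libraries of WT replicate 2 and KO replicate 1 carried *Xist* at 298 and 306 CPM, while the others had at most 0.218 CPM, and Y-linked genes were nearly lacking in the same pair. Each group held 1 such library. *Prdm16* itself was counted at 26.8 to 32.2 CPM in WT and 21 to 25 CPM in KO over all retained cells. Because UMIs were read from the 3′ end of transcripts, loss of exon 2 need not remove them, and this level does not check the genotype.

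The sequences before the start sites of the 3 members that rose in a class of the KO mice, *Gsta3*, *Gstm1* and *Gstm2*, are given first because the comparisons below turn on these genes. They are the 250 bases upstream of a RefSeq start site on GRCm38.p6, printed 5′ to 3′ on the strand of the gene, with motif matches in capitals. The *Gsta3* sequence lies at chr1:21240335-21240584 (plus strand), the *Gstm1* sequence at chr3:108017819-108018068 (minus strand) and the *Gstm2* sequence at chr3:107986421-107986670 (minus strand).
Gsta3: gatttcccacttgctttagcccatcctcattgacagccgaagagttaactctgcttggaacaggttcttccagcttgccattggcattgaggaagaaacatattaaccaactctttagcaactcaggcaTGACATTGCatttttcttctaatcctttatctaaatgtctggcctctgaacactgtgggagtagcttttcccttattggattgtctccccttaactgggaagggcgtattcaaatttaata
Gstm1: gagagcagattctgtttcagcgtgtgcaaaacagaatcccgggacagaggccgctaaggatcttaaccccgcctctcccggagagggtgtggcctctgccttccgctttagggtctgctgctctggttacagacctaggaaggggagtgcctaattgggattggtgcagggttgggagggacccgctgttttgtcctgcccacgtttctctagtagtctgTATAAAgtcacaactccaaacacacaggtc
Gstm2: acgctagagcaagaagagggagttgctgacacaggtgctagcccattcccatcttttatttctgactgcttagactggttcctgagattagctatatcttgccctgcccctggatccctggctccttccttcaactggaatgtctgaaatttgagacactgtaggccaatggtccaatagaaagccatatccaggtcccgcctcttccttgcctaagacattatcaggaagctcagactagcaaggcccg
The capitals in *Gsta3* mark a match to the core of the antioxidant response element, TGACNNNGC, at positions −121 to −113 from the start site, and those in *Gstm1* mark a TATAAA box at −30 to −25. No motif searched was found in the *Gstm2* window, nor before a further RefSeq start site of *Gstm1*. Both strands were searched for TGACNNNGC, for the AP-1 motif TGANTCA, which can overlap it, and for TATAAA. TGACNNNGC was present in 10.2%, TGANTCA in 6.75% and TATAAA in 12.4% of the 32851 promoter windows of this length. Of the 9 members with a RefSeq window, TGACNNNGC occurred in *Gsta3* and *Gstm5*, TGANTCA in *Gstm5* and *Gstp1*, and TATAAA in *Gsta2* and *Gstm1*. *Gsta4* had no window. A match describes letters only and shows no binding.

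*Gstm1*, *Gstm2*, *Gstm4* and *Gstm5* lie together within 149 kb of chromosome 3, with *Gstm1* at chr3:108012255-108017973 and *Gstm2* at chr3:107981702-107986453 (GRCm38). *Gsta3* lies at chr1:21240589-21265661. Near-identical copies limit what 3′ counts can tell apart. Of the stretches of 50 bases in the last 600 bases of the annotated transcripts, 64.5% of those of *Gsta2* also occurred in another gene, mostly *Gsta1*, as did 37.7% of those of *Gstp1* and 23.2% of those of *Gstm1*. For *Gstm2* the share was 6.89%, and for the other members it was 0. The levels of *Gsta2* and *Gstp1*, and in part of *Gstm1*, may therefore hold reads of related genes or lack reads that were discarded.

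The levels of the transferases differed between nephron segments. PCT cells stood out by *Gsta2* and *Gstm5*, PC cells by *Gstm2* and *Gstt1*, and stromal and mesangial, PEC and PCT cells by *Gstm1*, whereas *Gsta4* was spread over podocyte and tubular classes alike. Levels are given below as CPM in the summed UMIs of a class, as mean ± SD over the 6 libraries, and are compared between classes for 1 gene at a time. The total includes mitochondrial UMIs, whose share differed between classes, so the order of classes can depend on them. Classes were built from clusters of these cells, with the *Gst* and *Mgst* genes left out of the genes used for clustering, and differences between classes were not tested.

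**Figure D1:**
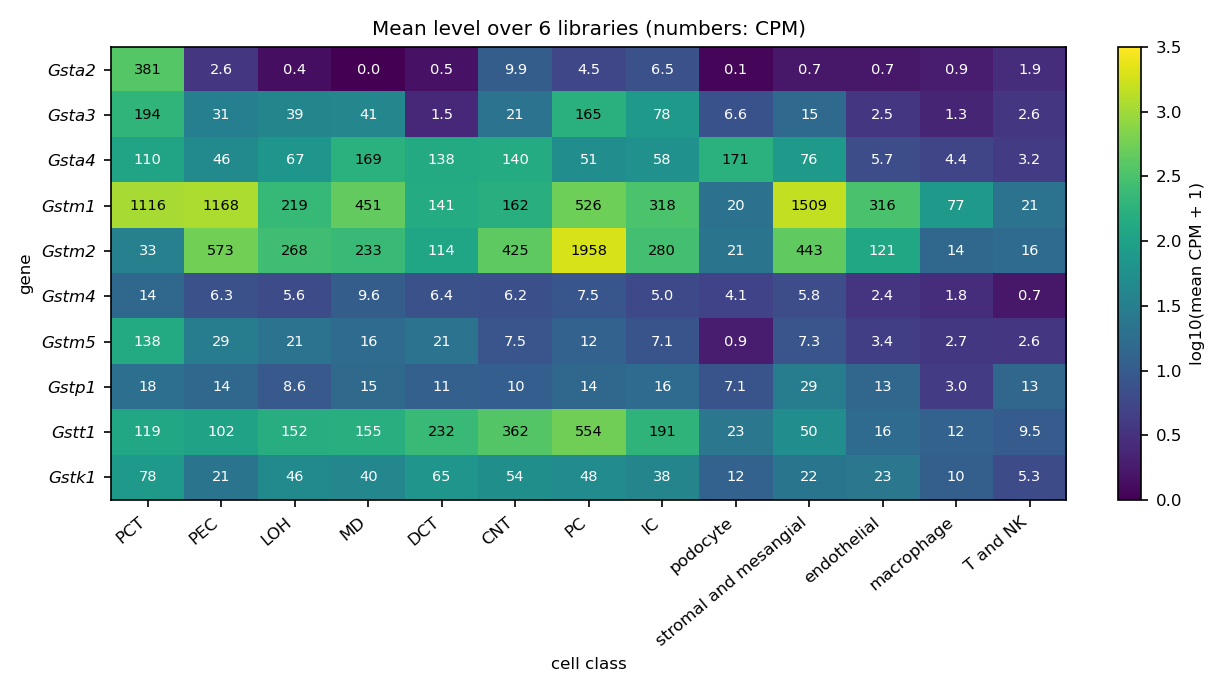
Mean CPM over the 6 libraries (3 WT, 3 KO) of each transferase (vertical axis) in each cell class (horizontal axis). Colour shows log10(mean CPM + 1) and the printed numbers give the mean CPM. *Gsta2* reaches 381 CPM in PCT and at most 9.93 CPM in any other class, and *Gstm2* reaches 1958 CPM in PC.

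Among the alpha class, *Gsta2* was nearly restricted to PCT cells, at 381 ± 268 CPM against 9.93 ± 4.37 CPM in CNT, the next class. Its level in PCT varied widely between mice, with 239, 588 and 129 CPM in WT mice against 155, 369 and 808 CPM in KO mice. Each library of PCT was above every library of CNT. *Gsta3*, an enzyme of the same class known for conjugating aflatoxin epoxide in the mouse, was highest in PCT (194 ± 50.5 CPM) and PC cells (165 ± 37.8 CPM), whose ranges overlapped. IC cells followed at 77.8 ± 28.7 CPM, below PC in all 6 libraries, and MD and LOH cells came next at 41.1 ± 23.7 CPM and 39.3 ± 15.6 CPM with overlapping ranges. DCT cells held 1.51 ± 0.590 CPM. *Gsta4*, whose product is known for removing the lipid peroxidation product hydroxynonenal, had its highest means in podocytes (171 ± 36.1 CPM) and MD cells (169 ± 15.1 CPM), and podocytes were above MD in only 3 of 6 libraries. CNT and DCT were close behind at 140.4 ± 16 CPM and 138 ± 12 CPM. The median mitochondrial share was 36.3% in MD cells and 8.83%, 14.05% and 26.87% in the podocyte clusters. With mt- genes left out of the total, the podocyte mean was below those of MD, DCT and CNT. In PCT, *Gsta4* ran from 21.7 to 286 CPM, so its place in the order was not settled. Endothelial, macrophage, and T and NK cells had means of 5.66, 4.44 and 3.19 CPM.

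The mu class split between segments. *Gstm1* was highest in stromal and mesangial cells (1509 ± 316 CPM), PEC (1168 ± 661 CPM) and PCT (1116 ± 456 CPM), 3 classes with overlapping ranges. The PEC mean pools unlike groups, with 1702 CPM in WT and 634 CPM in KO mice. PC cells held 526 ± 72.1 CPM, below PCT in all 6 libraries, and MD cells 451 ± 34.7 CPM. Further down came IC (318 ± 34.5 CPM), LOH (219 ± 64.7 CPM), CNT (162 ± 39.9 CPM) and DCT (141 ± 31.2 CPM), with LOH above CNT and CNT above DCT in 6 and 5 of 6 libraries. Podocytes had only 20.1 ± 4.89 CPM. *Gstm2* peaked in PC cells at 1958 ± 303 CPM, with no overlap with PEC (573 ± 425 CPM), the next class. CNT cells held 425 ± 39.9 CPM, above IC (279.6 ± 58.3 CPM) and LOH (268 ± 50.9 CPM) in every library, whereas IC and LOH overlapped. In PCT cells, where *Gstm1* was high, *Gstm2* was at 32.9 ± 27.9 CPM. *Gstm5* was highest in PCT at 138 ± 57.6 CPM, without overlap with PEC at 28.7 ± 11.8 CPM. The gap was small, with the lowest PCT library, KO replicate 1 with 19314 UMIs, at 51.8 CPM and the highest PEC library at 51.0 CPM. *Gstm4* was low throughout, with a highest mean of 13.7 ± 11.4 CPM in PCT.

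*Gstt1*, the theta class member, had an order over the distal nephron that held within libraries. Its level was 554 ± 70.6 CPM in PC, 362 ± 23.9 CPM in CNT and 232 ± 25.3 CPM in DCT, and each of these classes was above the next in all 6 libraries. IC cells held 191 ± 29.8 CPM, and MD (155 ± 19.5 CPM) and LOH (152 ± 16.3 CPM) could not be ordered. The mitochondrial and peroxisomal *Gstk1* ran from 77.7 ± 41.9 CPM in PCT and 65 ± 3.54 CPM in DCT to 11.6 ± 1.44 CPM in podocytes. *Gstp1* stayed between 3.00 CPM in macrophages and 29.3 CPM in stromal and mesangial cells, and none of its 12 steps from a class to the next held in all 6 libraries. For *Gstm1* 6 of the 12 steps held in all 6 libraries, for *Gstt1* 5, for *Gstm2* 4, for *Gsta3* and *Gstk1* 3 each, for *Gsta2* and *Gstm5* 2 each, and for *Gsta4* and *Gstm4* 1 each.

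Shares of cells with a UMI were compared after each cell was thinned to 500 UMIs, as the mean over libraries. *Gstm2* was seen in 52.1% of PC cells and 0.866% of podocytes, at median depths of 6244 and 3596 UMIs before thinning, and without thinning in 89.4% and 7.27%. *Gstm1* was seen in 45.6% of stromal and mesangial cells, 36.4% of PCT, 32.4% of PEC and 0.985% of podocytes (81.3%, 62.5%, 74.6% and 7.27% without thinning, at median depths of 2644, 1067, 4834 and 3596 UMIs). *Gsta2* was seen in 16.3% of thinned PCT cells (38.1% unthinned). Free RNA was present too. In barcodes of 5 to 99 UMIs, *Gstm1* was at 126 to 156 CPM, *Gstm2* at 126 to 191 CPM and *Gsta2* at 1.70 to 23.2 CPM. Podocytes held less *Gstm1* and *Gstm2* than these barcodes did, at 15.2 to 29 CPM and 15.3 to 28.7 CPM. *Gstm2* in PCT cells, at 0 to 64.6 CPM, overlapped podocytes and also lay below its range in free RNA. In LOH and MD cells, WT levels of *Gsta3*, given below, lay in or below its range in free RNA, and KO levels above it. The same held for *Gstm1* in CNT and DCT cells. The part of free RNA in these differences was not tested. *Gsta2* levels of the size found in CNT and IC lay within its range in free RNA. That range was wide, from 1.70 CPM in KO replicate 1 to 23.2 CPM in WT replicate 2.

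The genes whose pattern over 78 points (13 classes in 6 libraries) was most like that of a member were found among 6357 genes by Pearson's r of log2(CPM + 1). The points share libraries and depth, and r is given as a description. *Gsta2* was closest to *Dao* (r = 0.865), *Ugt3a1* (0.851) and *Cyp4a10* (0.834), and *Gstm5* to *Dbi* (r = 0.866), *Esd* (0.831) and *Rida* (0.827). *Gstm2* was closest to *Mecom* (r = 0.874), *Mthfd2l* (0.858) and *Hoxb6* (0.855), *Gstm1* to *Tns1* (r = 0.834) and *Col4a1* (0.813) and *Gsta3* to *Chpt1* (r = 0.801), *Car2* (0.789) and *Glb1l2* (0.784). *Gstt1* was closest to *Gstt3* (r = 0.917), *Phyh* (0.9) and *Pip4k2c* (0.9), the first of which belongs to the theta class as well. *Gsta4* was closest to *Rnf5* (r = 0.862), *Cxxc5* (0.854) and *Poldip2* (0.818) and *Gstk1* to *Ndufc1* (r = 0.87), *Ndufb9* (0.869) and *Abcd3* (0.854), 2 of which encode subunits of respiratory complex I.

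In the comparison of WT with KO mice, 3 members passed the threshold as higher in the KO and none as lower. Lower values that missed it, among them *Gstm2* in PEC, are given below. *Gsta3* rose in LOH, MD and IC cells, *Gstm1* in LOH, CNT and DCT cells, and *Gstm2* in LOH cells, with log2 fold changes of 0.48 to 1.58. UMIs were summed per library and class and tested with edgeR's quasi-likelihood test, with the Benjamini-Hochberg adjustment over all genes tested in the class, so that mice and not cells are the replicates. Over the 13 classes, 84 pairs of a member and a class passed the filter on low counts and 46 did not, among them all pairs of T and NK cells. Of the 84, 7 had an adjusted p under 0.05, all higher in KO, where 0.756% of all 97540 tests of a gene in a class were called higher and 1.46% in either direction.

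**Figure D2:**
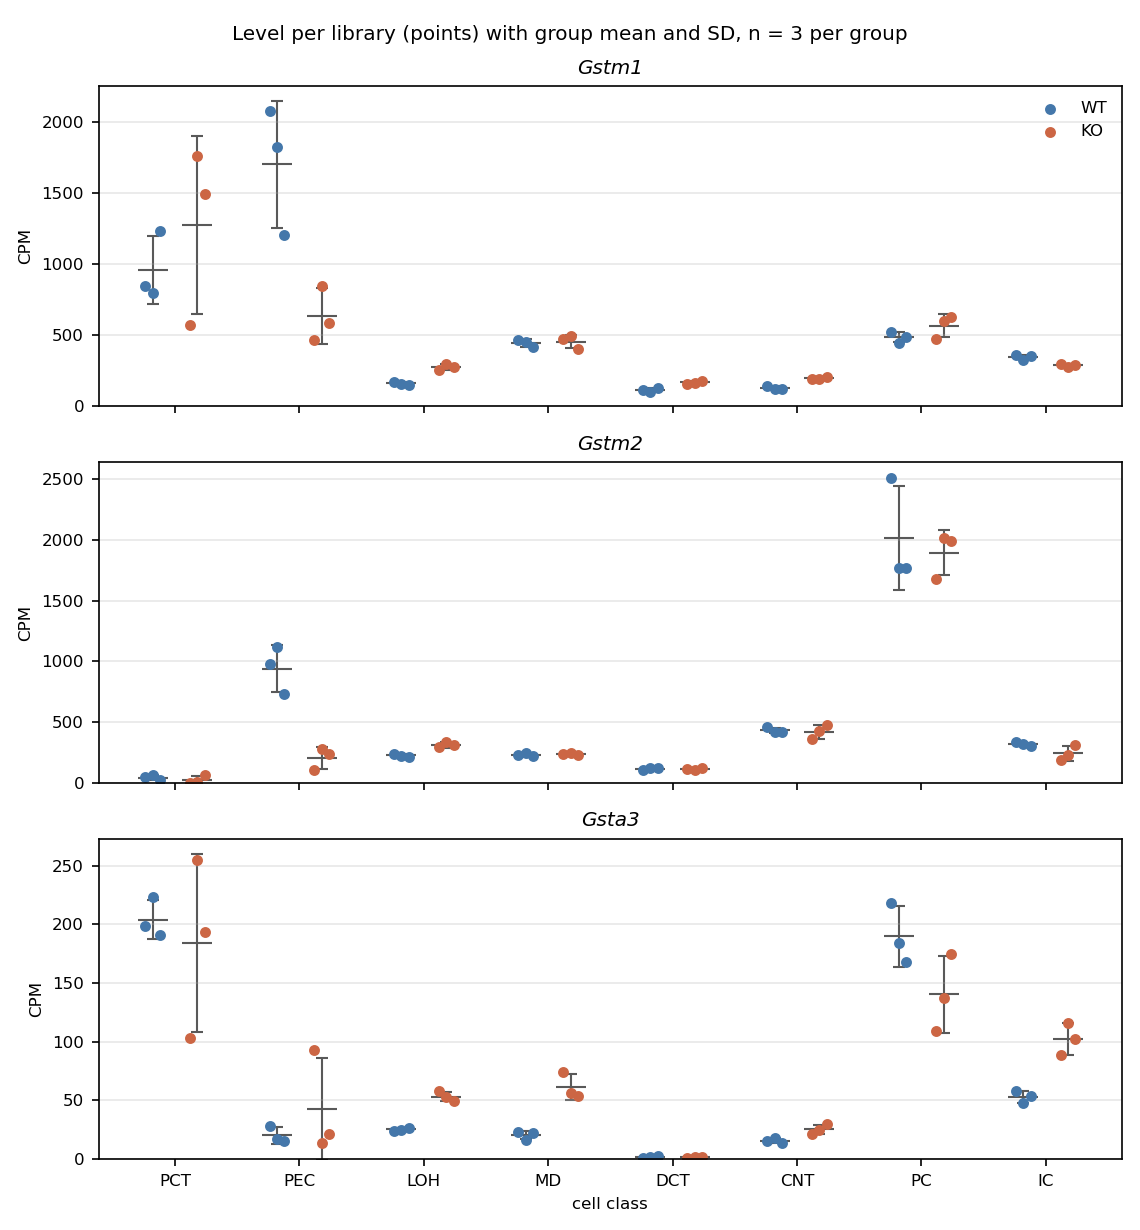
CPM of *Gstm1*, *Gstm2* and *Gsta3* in each library (points, WT blue and KO orange) over 8 nephron classes, with the mean and SD of the 3 libraries per group (bars). The KO points of all 3 genes lie above every WT point in LOH, while in PEC the KO points of *Gstm1* and *Gstm2* lie below every WT point.

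LOH cells, the thick ascending limb that reabsorbs salt and dilutes the urine, held 3 of the 7 calls. *Gsta3* was at 24.3, 25 and 26.6 CPM for WT mice 1 to 3 and 57.6, 52.6 and 49.6 CPM for KO mice 1 to 3. Every KO library was above every WT library (edgeR log2 fold change 1.07 with SE 0.10, adjusted p 1.76e-04). *Gstm1* was at 172, 160.4 and 152 CPM in WT mice against 257, 296 and 278 CPM in KO mice. The groups again did not overlap (edgeR log2 fold change 0.78 with SE 0.09, adjusted p 6.34e-04). *Gstm2* was at 238, 222 and 213 CPM in WT mice against 290.2, 337 and 309 CPM in KO mice and rose less (edgeR log2 fold change 0.48 with SE 0.09, adjusted p 0.0109). In this class 9 members were tested and 3 were higher in KO, where 1.96% of all genes tested were higher and 4.12% were called in either direction. The median log2 fold change over the 9 was 0.17, against −0.00334 over all genes. *Gstt1* was at 145, 139 and 138 CPM in WT mice against 181, 161 and 149 CPM in KO mice, also without overlap, and missed the threshold (edgeR log2 fold change 0.21 with SE 0.09, adjusted p 0.226). The other members differed little, with log2 fold changes of 0.05 for *Gsta4*, 0.10 for *Gstk1*, 0.17 for *Gstm5*, −0.01 for *Gstm4* and −0.23 for *Gstp1*, and edgeR adjusted p of 0.598 to 0.987.

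The LOH class was made of 3 clusters. In cluster 5, *Gsta3* was at 26.9 to 30.5 CPM in WT and 56.1 to 70.7 CPM in KO, and *Gstm1* at 168 to 203 CPM in WT and 303 to 348 CPM in KO. In cluster 6, led by *Tmem207* and *Cldn16*, *Gsta3* was at 16.4 to 19 CPM in WT and 32.3 to 39.9 CPM in KO and *Gstm1* at 110.4 to 119 CPM in WT and 167 to 219.6 CPM in KO. In cluster 9, of shallow cells, *Gsta3* was at 27.8 to 51.7 CPM in WT and 54.3 to 72.7 CPM in KO and *Gstm1* at 169 to 189 CPM in WT and 258 to 297 CPM in KO. For these 2 genes the groups did not overlap in any of the 3 clusters. *Gstm2* was at 239 to 278 CPM in WT and 345 to 387 CPM in KO in cluster 5, without overlap, and the groups overlapped in cluster 6, at 142 to 168 CPM in WT and 163 to 261 CPM in KO, and in cluster 9, at 139 to 251 CPM in WT and 219 to 351 CPM in KO. All 3 LOH calls were kept when the libraries with *Xist* were left out, and all were lost under a limit of 30% mitochondrial UMIs, with adjusted p of 0.475 for *Gsta3*, 0.0974 for *Gstm1* and 0.504 for *Gstm2* (log2 fold changes 0.94, 0.91 and 0.54), which left 809 LOH cells of 3615. Markers of other cells moved with the groups. The summed level of the 8 IC markers in LOH cells was 29.1 to 37.4 CPM in WT and 53.1 to 128 CPM in KO, 7 of them seen in every library, and that of the 7 PC markers was 36.4 to 56.5 CPM in WT and 22.9 to 32.2 CPM in KO. The 16 PCT markers summed to 16.8 to 88.8 CPM in WT and 37 to 40.0 CPM in KO, 5 of them seen in every library and *Slc5a2* in none. The part of these cells in the difference was not tested.

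In MD cells, which sense salt at the end of the loop and release signals to the glomerulus, *Gsta3* had its largest change among the classes where it rose. It was counted at 23.3, 16.5 and 21.8 CPM for WT mice 1 to 3 and 74.6, 56.3 and 54 CPM for KO mice 1 to 3. The groups were far apart and did not overlap (edgeR log2 fold change 1.58 with SE 0.28, adjusted p 0.00445). It was the only one of 7 members called, against 0.651% of all genes higher in KO and 0.96% called in either direction. When the libraries with *Xist* were left out, the log2 fold change was 1.33 with an adjusted p of 0.122. *Gstm1*, at 468, 454 and 417 CPM in WT mice against 469.9, 492 and 401 CPM in KO mice, was high in this class in both groups (edgeR log2 fold change 0.05 with SE 0.15, adjusted p 0.965). *Gstm2*, *Gsta4*, *Gstt1*, *Gstk1* and *Gstp1* had log2 fold changes of 0.06, 0.05, 0.23, −0.08 and −0.30, with adjusted p of 0.787 or more. The 7 PC markers, whose own cells held *Gsta3*, summed to 59.5 to 207 CPM in WT and 23 to 49.7 CPM in KO in MD cells. Any part of other cells in the *Gsta3* difference was not tested.

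IC cells, which secrete acid or base in the collecting duct, showed the same direction for *Gsta3*, at 58, 47.5 and 53.5 CPM in WT mice against 89.1, 116 and 103 CPM in KO mice (edgeR log2 fold change 0.98 with SE 0.14, adjusted p 0.0153). No KO library overlapped the WT range. The call was lost without WT replicate 2 (adjusted p 0.0508), WT replicate 3 (0.0857) or KO replicate 2 (0.0792), under the 30% limit (0.21) and with a block for the replicate number (0.0827). Among 10 members tested it was the only call, where 0.229% of all genes were higher in KO and 0.468% were called in either direction. The share of the clusters in the class differed between the groups, with cluster 8 at 67.5% of 1475 WT and 47.3% of 1249 KO cells, cluster 22 at 16.1% and 27.1%, and cluster 24 at 16.3% and 25.6%. Within cluster 8, *Gsta3* was at 46.9 to 51 CPM in WT and 82.1 to 113 CPM in KO, within cluster 22, led by *Slc4a1* and *Aqp6*, at 57.9 to 62.9 CPM in WT and 96.4 to 119 CPM in KO, and within cluster 24, led by *Slc26a4* and *Insrr*, at 37 to 68.1 CPM in WT and 82.2 to 129 CPM in KO. PC markers, whose cells have more *Gsta3*, were lower in the KO libraries of this class, at 2491 to 3555 CPM in WT and 1220.2 to 2176 CPM in KO. Whether other cells or the shares of the clusters had a part in the *Gsta3* difference was not tested. In contrast to LOH, *Gstm1* in IC cells was at 357, 327 and 356 CPM in WT mice against 298, 277 and 290.1 CPM in KO mice and did not pass the test (edgeR log2 fold change −0.24 with SE 0.11, adjusted p 0.498). *Gstm2* was at 332, 315 and 306 CPM in WT mice against 188, 225 and 311 CPM in KO mice (edgeR log2 fold change −0.36 with SE 0.18, adjusted p 0.545) and *Gstt1* at 222, 216 and 208 CPM in WT mice against 152, 159 and 186 CPM in KO mice (edgeR log2 fold change −0.34 with SE 0.13, adjusted p 0.34). *Gsta2* was at 7.08, 10.9 and 8.05 CPM in WT mice against 3.83, 3.92 and 4.97 CPM in KO mice (edgeR log2 fold change −1.02 with SE 0.27, adjusted p 0.161). These values lay within its range in free RNA over all libraries. Library by library, free RNA held 1.77, 23.2 and 9.69 CPM in WT mice and 1.70, 7.10 and 4.47 CPM in KO mice. *Gsta4*, *Gstm4*, *Gstm5*, *Gstp1* and *Gstk1* had log2 fold changes of −0.46, −0.19, 0.71, 0.05 and 0.02 (adjusted p 0.474 or more). *Gsta4* was at 69.8, 69 and 65.9 CPM in WT mice against 39.5, 36.6 and 69.6 CPM in KO mice, and without KO replicate 3, which lay within the WT range, its log2 fold change was −0.84 with an adjusted p of 0.0143.

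Along the distal convolution, *Gstm1* was the member that rose. In CNT cells it was at 142, 119 and 120.4 CPM in WT mice against 193, 193 and 207 CPM in KO mice (edgeR log2 fold change 0.66 with SE 0.13, adjusted p 0.0129), and in DCT cells, the thiazide-sensitive segment, at 113, 103 and 128 CPM in WT mice against 157, 167 and 181 CPM in KO mice (edgeR log2 fold change 0.56 with SE 0.13, adjusted p 0.0403). The groups did not overlap in either class. In CNT, 1 of 10 members was called, against 1.2% of genes higher in KO and 2.62% in either direction. In DCT it was 1 of 8, against 0.803% and 1.37%. Both calls were lost under the 30% limit, at an adjusted p of 0.469 in CNT and 0.761 in DCT (log2 fold changes 0.48 and 0.44), and with only the libraries without *Xist*, at an adjusted p of 0.0627 in CNT and 0.146 in DCT (log2 fold changes 0.65 and 0.55). The CNT call was also lost without KO replicate 2 (0.0507) or 3 (0.0641) and with no mitochondrial limit (0.0819). The DCT call was also lost with a block for the replicate number (0.0641), with classes from single-cell scores (0.0521) and without any 1 of WT replicates 1 and 2 and KO replicates 1 to 3 (highest adjusted p 0.144). The markers of the classes moved too, with CNT markers in CNT cells at 47313 to 55574 CPM in WT and 35693 to 46537 CPM in KO and DCT markers in DCT cells at 3595 to 4087 CPM in WT and 4468 to 4716 CPM in KO. Their part in the difference was not tested.

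*Gsta3* in CNT cells was at 15.6, 18 and 13.8 CPM in WT mice against 21.2, 24.9 and 29.6 CPM in KO mice, without overlap, and did not pass the test (edgeR log2 fold change 0.69 with SE 0.20, adjusted p 0.106). *Gsta4* in CNT was at 161, 155 and 139 CPM in WT mice against 136, 117 and 135 CPM in KO mice (log2 fold change −0.21, edgeR adjusted p 0.572). *Gstm2* hardly differed in either class, with log2 fold changes of −0.01 in CNT and −0.03 in DCT (adjusted p 0.996 and 0.969), and *Gstt1* had 0.09 and −0.18 (adjusted p 0.853 and 0.656). *Gstm4* and *Gstm5* in DCT had 0.70 and 0.41 (adjusted p 0.512 and 0.504) at levels under 30 CPM. The members not yet given, *Gsta2*, *Gstm4*, *Gstm5*, *Gstp1* and *Gstk1* in CNT and *Gsta4*, *Gstp1* and *Gstk1* in DCT, had adjusted p of 0.557 or more.

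**Figure D3:**
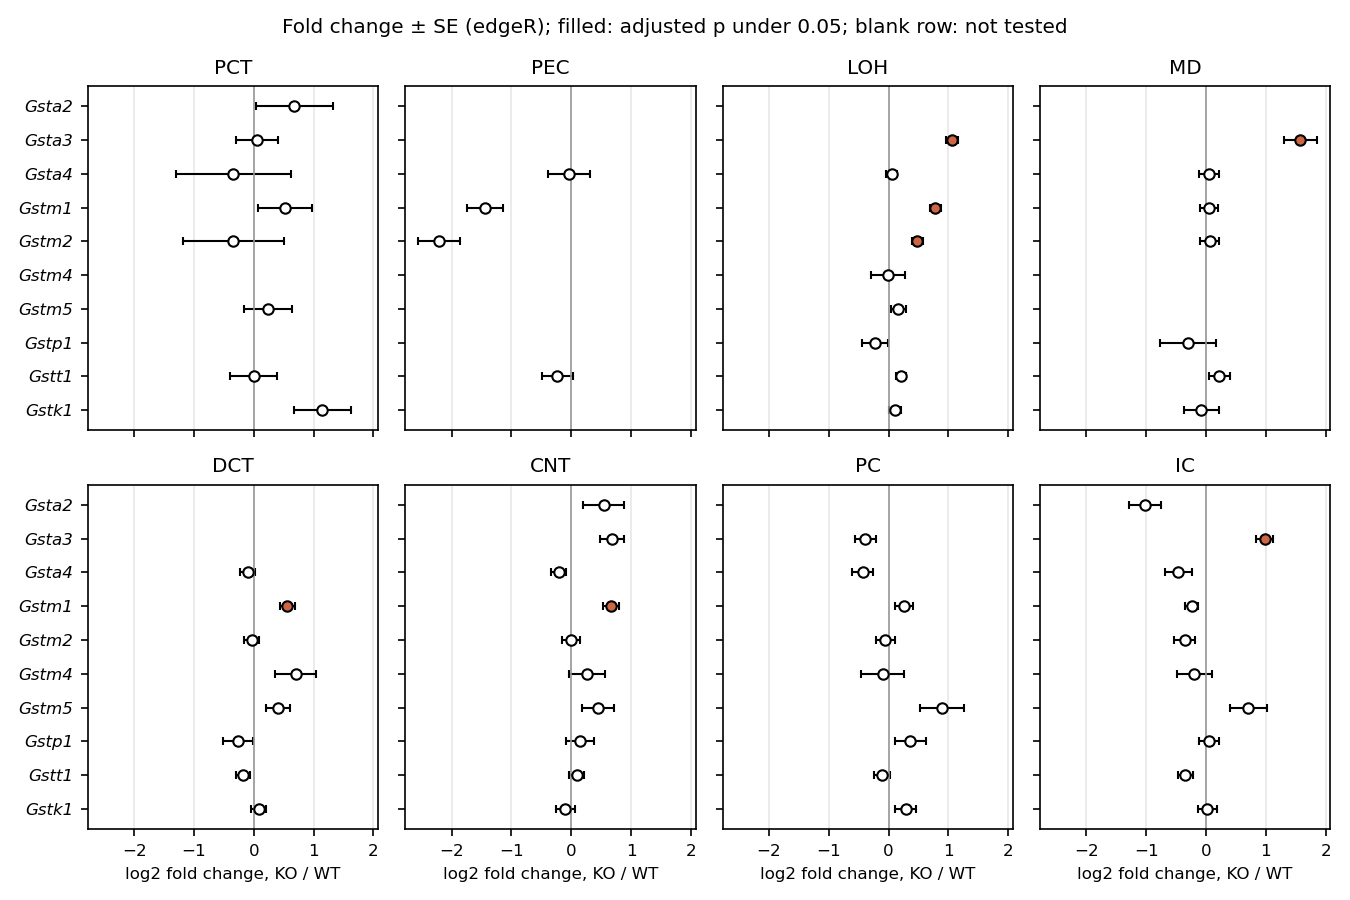
Log2 fold change of KO over WT (horizontal axis) with its standard error (bars) for each transferase (vertical axis) in 8 nephron classes, from edgeR on 3 against 3 libraries. Filled points passed an adjusted p of 0.05, open points did not, and a blank line is a member that was not tested. The 7 filled points all lie to the right of 0.

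PC cells, which take up sodium and water, had the highest *Gstm2* and *Gstt1*, and none of their 9 tested members was called (against 2.51% of all genes). At an unadjusted p under 0.05 there were 3 members, and DESeq2 called 0. *Gstm2* was at 2513, 1773 and 1770.5 CPM in WT mice against 1679, 2016 and 1994 CPM in KO mice (edgeR log2 fold change −0.05 with SE 0.16, adjusted p 0.926), and *Gstt1* at 679.6, 529 and 534 CPM in WT mice against 571, 547 and 466 CPM in KO mice (edgeR log2 fold change −0.11 with SE 0.13, adjusted p 0.789). *Gsta3* was at 218, 184 and 168 CPM in WT mice against 109, 137 and 174 CPM in KO mice, with KO replicate 3 within the WT range (edgeR log2 fold change −0.39 with SE 0.18, adjusted p 0.361). *Gstm1* had a log2 fold change of 0.25, edgeR adjusted p 0.524, and *Gstm5*, low at 5.90 to 22.5 CPM, one of 0.89, edgeR adjusted p 0.285. *Gsta4* was at 60.0, 60.0 and 55.9 CPM in WT mice against 55.1, 32.1 and 40.0 CPM in KO mice (edgeR log2 fold change −0.43 with SE 0.18, adjusted p 0.302). *Gstk1*, *Gstp1* and *Gstm4* had log2 fold changes of 0.29, 0.36 and −0.09 (adjusted p 0.549 or more).

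To test whether the genotype effect differed between segments, its log2 fold change in each tubular class was compared with that in LOH in a joint edgeR fit with the mouse as a block. Of 67 such differences over 7 classes, 8 were past the threshold, and all were below LOH. In IC, 2 of 10 members were called (0.93% of all genes were), namely *Gstm1* (difference −1.01, SE 0.12, edgeR adjusted p 0.00109) and *Gstm2* (difference −0.87, SE 0.16, edgeR adjusted p 0.0118). In PC, 3 of 10 were called against 2.21%, namely *Gsta3* (difference −1.46, SE 0.20, edgeR adjusted p 4.54e-04), *Gstm1* (difference −0.54, SE 0.14, edgeR adjusted p 0.0465) and *Gstm2* (difference −0.52, SE 0.13, edgeR adjusted p 0.0476). The last 2 were kept in only 1 of 8 alternatives, which left out single libraries, used classes from single-cell scores or the 30% limit. In MD, 1 of 9 was called against 0.339%, *Gstm1* (difference −0.73, SE 0.15, edgeR adjusted p 0.00425), and it was lost without KO replicate 2 or 3 (highest adjusted p 0.0935). In PEC, 2 of 9 were called against 0.15%, *Gstm1* (difference −2.16, SE 0.27, edgeR adjusted p 1.30e-04) and *Gstm2* (difference −2.68, SE 0.30, edgeR adjusted p 3.26e-05).

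No member passed the test of a difference from LOH in CNT (0 of 10, 2.8% of all genes), DCT (0 of 9, 1.31%) or PCT (0 of 10, 0.219%). For *Gstm1*, the value was −0.10, SE 0.13, edgeR adjusted p 0.799 in CNT and −0.21, SE 0.13, edgeR adjusted p 0.603 in DCT. The rise of *Gstm1* in these classes was therefore not distinguished from that in LOH. For *Gsta3*, the value was 0.52, SE 0.31, edgeR adjusted p 0.799 in MD and −0.09, SE 0.17, edgeR adjusted p 0.914 in IC.

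**Figure D4:**
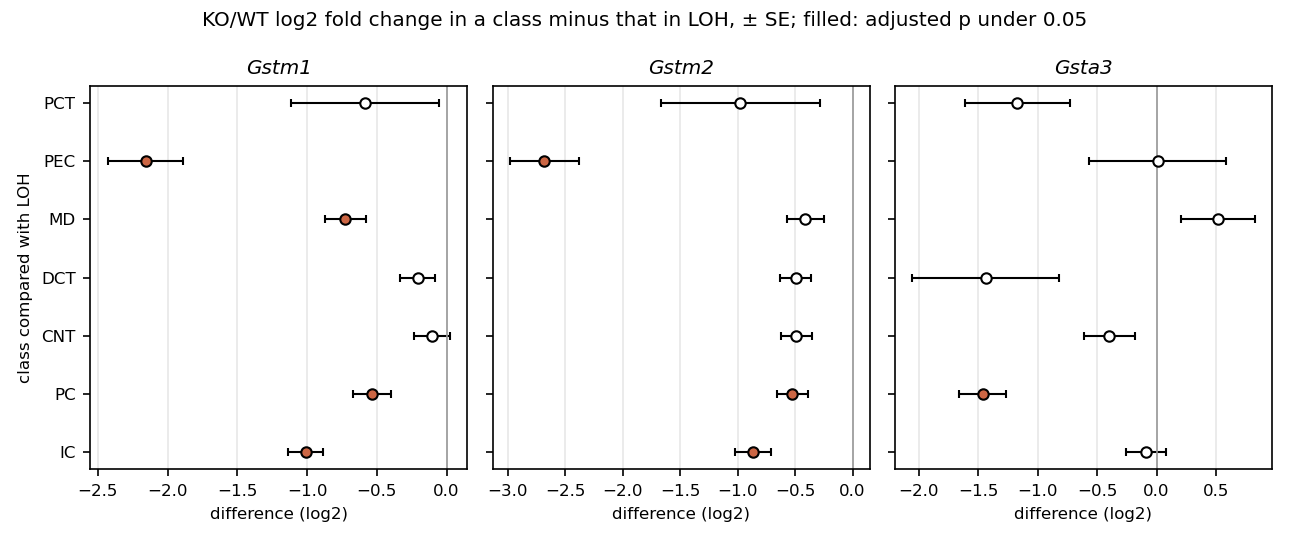
Difference between the KO over WT log2 fold change in a class and that in LOH (horizontal axis, with standard error) for *Gstm1*, *Gstm2* and *Gsta3* over 7 classes (vertical axis). Filled points passed an adjusted p of 0.05. The values for *Gstm1* and *Gstm2* in PEC, at −2.16 and −2.68, lie farthest to the left of 0.

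PEC cells, named after the lining of Bowman's capsule, held the largest log2 fold change of any tested member in a nephron class, for *Gstm2*, and its direction was opposite to that in LOH. *Gstm2* was at 980.4, 1114 and 727 CPM for WT mice 1 to 3 and 104, 278 and 234 CPM for KO mice 1 to 3. *Gstm1* was at 2074, 1824 and 1207 CPM in WT mice against 466, 848 and 588 CPM in KO mice. For both, each KO library lay below every WT library, and neither passed the test within the class (edgeR log2 fold change −2.21 with SE 0.35, adjusted p 0.0664 for *Gstm2* and edgeR log2 fold change −1.44 with SE 0.30, adjusted p 0.188 for *Gstm1*). Of 4450 genes tested in this class, none was called (0%), although 315 had an unadjusted p under 0.05 and DESeq2 called 22, of which 2 were members. The values depended on which cells were counted. With no mitochondrial limit, *Gstm2* had a log2 fold change of −0.49 (adjusted p 0.236) and *Gstm1* one of 0.00123 (0.999). Under the 30% limit they had −2.23 (0.0317) and −1.60 (0.0988). With only the libraries without *Xist* they had −1.78 (0.0119) and −1.24 (0.102). The class held 276 cells in 1 cluster, 27 to 70 per library.

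Markers of other cell types were visible in the PEC cluster. Its name rests on 3 markers, with a score of 4.17, and the descending limb list came second at 2.85. Whether the cluster held descending limb cells was not tested. The 9 stromal and mesangial markers, whose cells have the most *Gstm1*, summed to 666 to 1814 CPM in WT and 343 to 624 CPM in KO, without overlap. The 16 PCT markers summed to 296 to 416 CPM in WT and 151 to 224 CPM in KO, with 3 seen in every library and *Slc5a2*, *Slc7a13* and *Acsm2* in none. Markers of the descending limb summed to 1576 to 4427 CPM in WT and 1852 to 8189.5 CPM in KO, and the 3 PEC markers *Cldn1*, *Ncam1* and *Akap12* to 532 to 879 CPM in WT and 266 to 627 CPM in KO. The part of these cells in the *Gstm1* and *Gstm2* values was not tested. The other tested members were nearly even, with *Gstt1* at a log2 fold change of −0.24, edgeR adjusted p 0.92 and *Gsta4* at −0.04, edgeR adjusted p 1.00.

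In PCT cells, the site of most glutathione turnover, 8 members were tested and none was called, as were 0.0689% of all genes (of which 163 genes, 1 of them a member, had an unadjusted p under 0.05 and DESeq2 called 8 genes and no member). The KO libraries had 11 to 37 PCT cells, so only large differences could be seen. *Gstm1* was at 847, 798 and 1230.0 CPM in WT mice against 569.5, 1757 and 1495 CPM in KO mice (edgeR log2 fold change 0.51 with SE 0.45, adjusted p 0.928), and KO replicate 1 was the lowest and KO replicate 2 the highest of all 6. *Gsta2* had a log2 fold change of 0.68, edgeR adjusted p 0.953, with the values given above, *Gsta3* one of 0.06, edgeR adjusted p 1.00, *Gstm5* one of 0.24, edgeR adjusted p 0.988 and *Gstk1* one of 1.15, edgeR adjusted p 0.766. With only the libraries without *Xist*, *Gsta2* in PCT was called (log2 fold change 1.96, adjusted p 0.0439), and it was called in none of the other alternatives that could be run for this class. *Gsta4*, *Gstm2* and *Gstt1* had values of −0.34, −0.34 and −0.00457, each with an adjusted p above 0.9. *Gstm2* had no UMI in KO replicate 1, where a count of 0 among 19314 UMIs allows up to 155 CPM.

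Without the mitochondrial limit, PCT cells numbered 64, 1029 and 1051 in WT and 31, 620 and 363 in KO replicates 1 to 3, and the levels were lower. *Gstm1* was then at 432, 291 and 321 CPM in WT mice against 421, 184 and 472 CPM in KO mice. *Gsta2* was at 106, 197 and 37.7 CPM in WT mice against 159, 52.1 and 188 CPM in KO mice, and *Gsta3* at 157, 84.6 and 61 CPM in WT mice against 114, 33.2 and 58.2 CPM in KO mice. The groups overlapped for each of these, as they did under the limit. CPM counts mitochondrial UMIs in its total. *Gstm1* in PCT went from a mean of 1116 CPM under the limit to 354 CPM without it, and *Gsta2* from 381 to 123 CPM. With mt- genes left out of the total, the mean CPM was 1764 and 1469 for *Gstm1* and 621 and 522 for *Gsta2*.

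**Figure D5:**
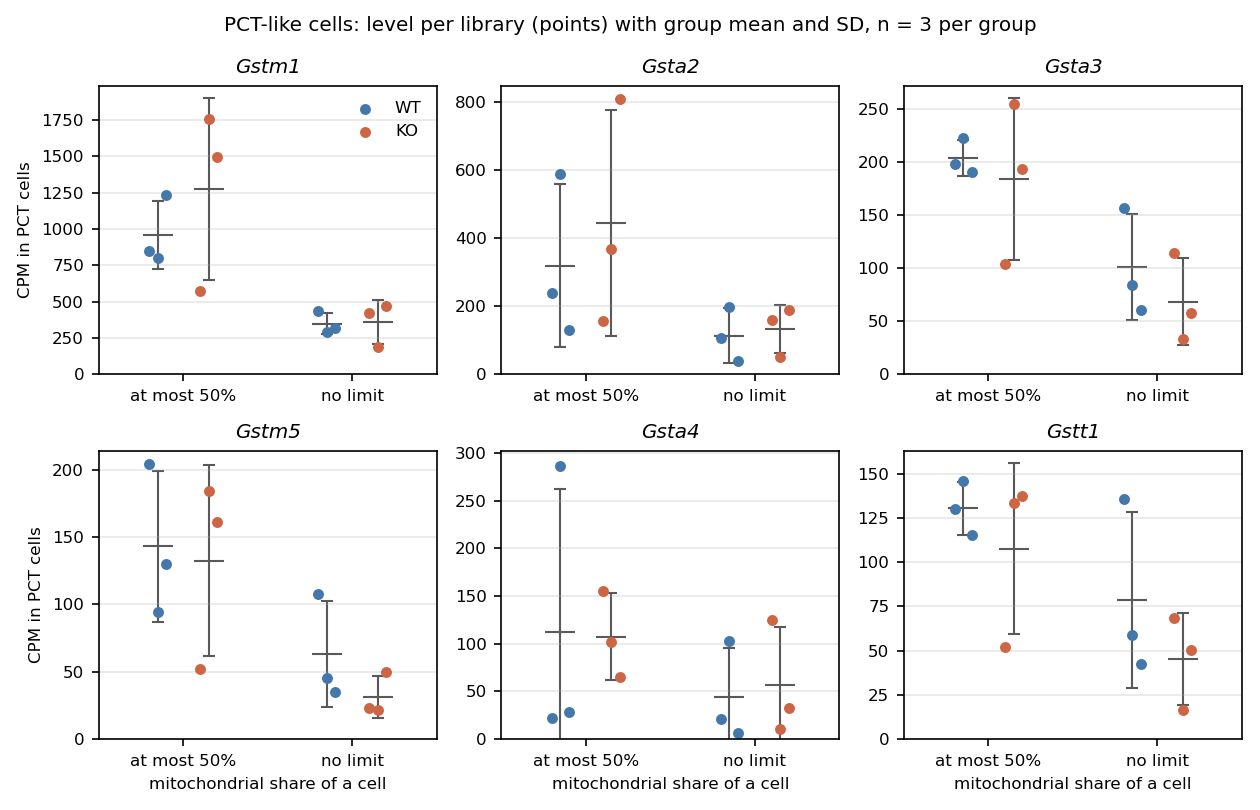
CPM of 6 transferases in PCT cells of each library (points, WT blue and KO orange) with group mean and SD (bars, n = 3 per group), for cells with at most 50% mitochondrial UMIs and without a limit. WT and KO points overlap in every panel, and *Gstm1* and *Gsta2* are lower without the limit.

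Outside the tubule no member was called. In podocytes, 0 of 8 were called against 1.73% of all genes (DESeq2 called 1 and 2 members had an unadjusted p under 0.05). *Gsta4*, with its highest mean here only when mt- UMIs count in the total, was at 190.4, 213 and 196 CPM in WT mice against 138, 168 and 120.0 CPM in KO mice, with every KO library below every WT library (edgeR log2 fold change −0.51 with SE 0.12, adjusted p 0.0612). *Gsta3* was low at 3.72, 3.54 and 5.80 CPM in WT mice against 8.43, 9.56 and 8.57 CPM in KO mice (edgeR log2 fold change 1.03 with SE 0.26, adjusted p 0.0713). The *Gsta4* value passed the threshold with DESeq2, with no filter, in the fit blocked by replicate number and without KO replicate 2, and the *Gsta3* value with no filter, in the blocked fit and without a mitochondrial limit. In endothelial cells 0 of 5 were called against 0.206%, in stromal and mesangial cells 0 of 5 against 0.0518%, and in macrophages 0 of 1 against 0.622%, with no member at an unadjusted p under 0.05 and none called by DESeq2 in these 3 classes. *Gstm1* in stromal and mesangial cells, its highest class, was at 1785, 1277 and 1471 CPM in WT mice against 1356, 1175 and 1992 CPM in KO mice (edgeR log2 fold change 0.03 with SE 0.21, adjusted p 0.991). *Gstm2* there had a log2 fold change of −0.36, edgeR adjusted p 0.701. In macrophages *Gstm1* had one of 0.10, edgeR adjusted p 0.936.

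Summed over all retained cells, none of the 10 members was called, against 1.07% of all genes, while DESeq2 called 1 and 1 had an unadjusted p under 0.05. In such sums, fewer cells of a type and less RNA per cell cannot be told apart. *Gsta4* was at 107, 119 and 94.1 CPM in WT mice against 80.5, 82.3 and 80.5 CPM in KO mice (edgeR log2 fold change −0.37 with SE 0.09, adjusted p 0.13), and *Gstm1* at 248, 220.0 and 267 CPM in WT mice against 233, 259 and 296 CPM in KO mice (edgeR log2 fold change 0.13 with SE 0.16, adjusted p 0.764). *Gsta2*, which comes from PCT cells, had a log2 fold change of −1.06, edgeR adjusted p 0.408, beside the smaller number of PCT cells in KO.

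Of 19 further genes of the family, which include the omega, zeta and microsomal enzymes, 4 of 89 tests over the 13 classes were higher and 1 was lower in KO, where 0.756% and 0.704% of the tests of all genes were. *Gsto1*, whose product reduces rather than conjugates many substrates, rose in LOH at 104, 119.7 and 97.7 CPM in WT mice against 164, 166 and 173 CPM in KO mice, with an edgeR log2 fold change of 0.65, SE 0.09, adjusted p 0.00272. It also rose in PC, where the groups overlapped, at 16.6, 38.9 and 18.4 CPM in WT mice against 66.8, 37.6 and 202 CPM in KO mice, with an edgeR log2 fold change of 2.15, SE 0.50, adjusted p 0.0417. *Ptges*, which makes prostaglandin E with glutathione as a cofactor, rose in LOH at 2.37, 3.05 and 2.75 CPM in WT mice against 9.76, 7.46 and 8.25 CPM in KO mice, with an edgeR log2 fold change of 1.62, SE 0.22, adjusted p 0.00169 and in DCT at 8.6, 6.46 and 7.09 CPM in WT mice against 25.6, 12.9 and 19.2 CPM in KO mice, with an edgeR log2 fold change of 1.45, SE 0.27, adjusted p 0.0118. *Ltc4s*, which joins glutathione to leukotriene A, fell in DCT at 53.8, 95.3 and 67.3 CPM in WT mice against 40.8, 23.5 and 25.1 CPM in KO mice, with an edgeR log2 fold change of −1.22, SE 0.23, adjusted p 0.0118 and over all cells at 20.5, 24.8 and 21.9 CPM in WT mice against 14.2, 10.03 and 8.14 CPM in KO mice, with an edgeR log2 fold change of −1.05, SE 0.16, adjusted p 0.0406. The median log2 fold change of the tested genes of this list was 0.00618 in LOH (11 genes), 0.0360 in DCT (11) and 0.00708 in PC (8), against −0.00334, 0.00113 and 0.00274 over all genes.

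A glutathione pathway list of 41 genes also held genes that do not act on glutathione directly, such as *Nfe2l2*, *Keap1*, *Nqo1*, *Hmox1* and *Idh2*. Of its 318 tests over the 13 classes, 7 were higher and 6 lower in KO, against the same 0.756% and 0.704% of all tests. *Gpx3*, the extracellular glutathione peroxidase, rose in 3 tubular classes, with LOH at 11.7, 30.5 and 15.5 CPM in WT mice against 195, 70.4 and 98 CPM in KO mice, with an edgeR log2 fold change of 2.64, SE 0.36, adjusted p 0.00169, DCT at 218, 266 and 289.7 CPM in WT mice against 1687, 1097 and 828 CPM in KO mice, with an edgeR log2 fold change of 2.22, SE 0.19, adjusted p 4.76e-05 and MD at 63, 133 and 31.8 CPM in WT mice against 410.3, 221 and 228 CPM in KO mice, with an edgeR log2 fold change of 1.89, SE 0.31, adjusted p 0.00182. *Gpx6*, a further peroxidase, rose in DCT at 62.4, 39.8 and 75.7 CPM in WT mice against 269, 192 and 129 CPM in KO mice, with an edgeR log2 fold change of 1.76, SE 0.23, adjusted p 7.65e-04. *Hagh*, which releases glutathione at the end of the glyoxalase pathway, fell in LOH at 61.5, 67.7 and 69.4 CPM in WT mice against 35.4, 43.8 and 41.1 CPM in KO mice, with an edgeR log2 fold change of −0.72, SE 0.11, adjusted p 0.00389, in CNT at 95.9, 88.7 and 91.6 CPM in WT mice against 59.7, 61 and 57.4 CPM in KO mice, with an edgeR log2 fold change of −0.61, SE 0.12, adjusted p 0.0141 and in PC at 94.9, 116 and 95 CPM in WT mice against 40.9, 58.6 and 66.1 CPM in KO mice, with an edgeR log2 fold change of −0.84, SE 0.19, adjusted p 0.0362. *Slc3a2*, the heavy chain shared by amino acid exchangers such as the cystine importer, fell in PC at 306, 362 and 424 CPM in WT mice against 228, 221 and 199.9 CPM in KO mice, with an edgeR log2 fold change of −0.74, SE 0.16, adjusted p 0.029. In LOH, where 3 transferases rose, 3 of 31 tested pathway genes were higher and 2 lower (against 1.96% and 2.16% of all genes), with a median log2 fold change of −0.00113 against −0.00334 over all genes. *Gpx6*, *Idh2* and *Abcc1*, the last a pump for glutathione conjugates, were the others called there, of which *Idh2* and *Abcc1* are named after their values were seen, at log2 fold changes of 0.75, 0.38 and −0.52. In podocytes *Idh2* rose (log2 fold change 0.88) and *Slc3a2* fell (−0.82). In IC, PCT and PEC none of 31, 23 and 15 tested pathway genes was called by edgeR.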

How the data were processed

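The authors deposited raw UMI counts per gene and barcode for 6 libraries, which the BD Rhapsody WTA pipeline had produced on mm10 with a GENCODE annotation, unfiltered and not normalised. Sample titles gave group and mouse number. Barcodes with 500 to 60000 UMIs, 200 to 8000 genes and at most 50% mt- UMIs were kept. Scrublet's automatic threshold marked under 0.5% of cells in every library, so the 6% with the highest scores were removed. Cells were clustered in scanpy 1.11.5 (2000 variable genes without *Gst* and *Mgst* genes, 30 principal components, 15 neighbours, Leiden resolution 1.0), without correction between libraries, and named from marker lists; of these, the descending limb list named no cluster, and MD and PEC were added to the tubular classes. Clusters 13, 17 and 18, which mixed lists, stayed unnamed. Other shallow clusters were named, such as 9 in LOH (median 809 UMIs) and 8 in IC (1209 UMIs). Cluster 7 also mixed lists and was named CNT, because its leading genes held 3 CNT and 2 PC markers.

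UMIs were summed per library and class (at least 20 cells per library, PCT at least 10) and tested with edgeR 4.0.16 in R 4.3.3 (TMM, filterByExpr with a minimum count of 10, glmQLFit, two-sided glmQLFTest, Benjamini-Hochberg over all genes of the fit, threshold 0.05). Each SE, in text and figures, is the size of the log2 fold change divided by the square root of the F statistic of that test. DESeq2 1.42.0 served as an alternative. The fits were tested on simulated data with known changes. Alternatives covered scaling, filter, mitochondrial limit, class assignment, left-out libraries and terms for replicate number and *Xist*. Doublet removal at 6% everywhere was identical to the rule used. *Gst* genes among the variable genes, and counts of genes called per class, were added after seeing the data.

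The members and gene lists were chosen with earlier results of these data known. All members are named where tested, other family genes where past the threshold, pathway genes by the 2 largest changes past the threshold in each tubular class, and genes of like pattern by the 3 highest correlations among genes with a mean of at least 20 CPM. Replicate numbers did not pair mice: deviations of same-numbered WT and KO libraries from their group means correlated at −0.238 to 0.213 over the fits. Counting limits for a count of 0 use 3 counts and cover counting error only. Of the genes with a pattern like a member's, 1 is not reported here.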

Additional observations from a re-analysis of the deposited data

Results flagged for a closer look

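The effect of the knockout differed between LOH and another tubular class, by the test of the difference itself, for 8 pairs of a member and a class. In PEC, the log2 fold change was below that in LOH by −2.682 for *Gstm2* (called in all 8 alternatives) and −2.159 for *Gstm1* (7 of 8). These alternatives did not include the setting without a mitochondrial limit. In that setting, both log2 fold changes within PEC were much smaller in size. In IC the difference was −1.01 for *Gstm1* (8 of 8) and −0.8689 for *Gstm2* (5 of 8), in PC −1.462 for *Gsta3* (7 of 8), −0.5356 for *Gstm1* (1 of 8) and −0.524 for *Gstm2* (1 of 8), and in MD −0.7278 for *Gstm1* (5 of 7). The PEC values rest on 276 cells of 1 cluster in which stromal and PCT markers were also lower in KO, and the part of those cells was not tested. Groups of 3 libraries are too small for a test of single outlying libraries.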

How the results depend on the processing

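Recomputed values were counted for the 7 called pairs of a member and a class and the 8 called differences from LOH. *Gstm1* and *Gstm2* in PEC and *Gsta3* and *Gsta4* in podocytes were counted too, and the other pairs were not. Of these values, 191 kept direction and side of the threshold, 44 lost the threshold, 13 gained it and 1 changed sign. The change of sign was *Gstm1* in PEC with a log2 fold change of 0.00123 without a mitochondrial limit. Against 7 pairs of a member and a class higher in KO and 0 lower, the limit of 30% gave 0 higher and 1 lower, DESeq2 3 lower, no filter 4 lower, and no mitochondrial limit and the libraries without *Xist* 1 lower each. The block for the replicate number gave 6 higher and 1 lower. It ended the calls of *Gsta3* in IC and *Gstm1* in DCT, added *Gsta3* and *Gsta4* in podocytes, and changed no other call of a member. Leaving out single libraries gave 4 (without KO replicate 2) to 6 higher and 0 to 1 lower. Against 7 pathway tests higher and 6 lower, no filter gave 13 and 21, the *Xist* block 11 higher, the libraries without *Xist* 3 lower, no mitochondrial limit 13 lower, and leaving out single libraries 7 to 9 higher and 1 (without KO replicate 1) to 6 lower. Against 8 differences from LOH, classes from single-cell scores gave 5, the 30% limit 4, and single libraries left out 4 (without KO replicate 2) to 10. With single libraries left out, the class with the highest level was that of the main setting for 9 to 10 of the 10 members. Under the 30% limit, with too few PCT cells to rank, it was so for 5. With mt- genes left out of the total, *Gsta4* was highest in MD cells and not in podocytes. The other settings are not given here.

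Counts of genes called varied with the setting, from 22 to 954 in LOH (445 as reported), 6 to 410 in IC (49), 99 to 618 in CNT (267), 17 to 368 in DCT (130), 18 to 133 in MD (56), 90 to 679 in PC (243), 58 to 764 in podocytes (179), 0 to 255 in PEC (0), 0 to 66 in PCT (2), 8 to 331 in endothelial, 1 to 114 in stromal and mesangial and 0 to 142 in macrophage cells. The causes of these shifts were not tested. In PCT, the KO libraries held 11 to 37 cells each, which limits what could be detected there.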
